A study of Homo sapiens with 8 samples.

Results

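The UGT2 genes on chromosome 4q13 were examined for the histone marks H3K4me3 and H3K27ac in HL-60 cells, an established human promyelocytic leukemia cell line. The 5 genes UGT2B4, UGT2B11, UGT2B28, UGT2A1 and UGT2A2, of 20163 protein-coding genes in the annotation, were chosen by their neighbourhood, which carried H3K4me3 in control cells and not in ATRA-treated cells. They lie in a stretch of 1.3 Mb of chromosome 4 (hg19), from TMPRSS11E to 81.0 kb past UGT2A1, together with the TSS of 6 other protein-coding genes. Since this contrast of H3K4me3 selected them, it is described below without a test. Control cells received ethanol and the other cells 1 µM all-trans retinoic acid (ATRA), which drives HL-60 cells towards granulocytes, for 4 days. Each mark was measured by ChIP-seq with 2 replicates of each condition, which gave 4 groups and 8 libraries. All libraries come from a single cell line, and nothing says whether the replicates were separate cultures, so their spread may be technical. The values are the broad peaks that MACS2 called in each library, as positions without read counts, so the depth is unknown.

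UGT2 enzymes join glucuronic acid, taken from UDP-glucuronic acid, to lipophilic molecules such as steroids, bile acids and drugs, which makes them soluble enough to be excreted. UGT2B enzymes are best known from the liver and UGT2A1 from the olfactory epithelium, and the family arose by repeated duplication, so that 4q13 holds genes and pseudogenes of closely related sequence. H3K4me3 mainly marks active promoters, and H3K27ac marks active promoters and enhancers.

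No member had H3K4me3 at its own transcription start site (TSS) in any library. The H3K4me3 found in control cells alone lay at 5 loci around UGT2B11, among them the start of an antisense long noncoding RNA (lncRNA) and the inside of a pseudogene, and 1 distant locus was marked in both conditions. All 5 overlapped H3K27ac peaks, wholly or in part, in replicate 2 of the control cells and of the ATRA-treated cells. In control replicate 1, 1 of them did. The control H3K27ac peaks there lay below the median deposited −log10 q of their library, and none reached 5. Of all H3K27ac peaks in control replicates 1 and 2, 16.8% and 12.8% reached it. Both the stretch at the lncRNA start and an element before it were members of duplicated families within 4q13.

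The sequences of the marked lncRNA start and of its copies are shown because only some of these near-identical copies carried H3K4me3. Each is written 5′ to 3′ on the stated strand of hg19, and capitals mark bases that differ from the lncRNA copy. In UGT2A3 the stretch is coding sequence of the first exon.
lncRNA ENSG00000250696, start onward, chr4:70047818-70047937, plus strand, H3K4me3 in both control libraries: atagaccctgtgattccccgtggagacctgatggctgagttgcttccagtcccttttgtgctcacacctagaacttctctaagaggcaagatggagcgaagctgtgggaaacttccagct
pseudogene ENSG00000249763, chr4:70108783-70108902, plus strand, H3K4me3 in both control libraries: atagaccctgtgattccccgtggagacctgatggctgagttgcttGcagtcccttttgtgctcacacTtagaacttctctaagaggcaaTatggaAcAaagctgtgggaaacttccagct
pseudogene ENSG00000251691, chr4:70172341-70172458, minus strand, no H3K4me3 in any library: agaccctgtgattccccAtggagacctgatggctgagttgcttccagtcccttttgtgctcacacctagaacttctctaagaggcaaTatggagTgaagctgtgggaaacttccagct
pseudogene ENSG00000250612, chr4:70212768-70212887, plus strand, no H3K4me3 in any library: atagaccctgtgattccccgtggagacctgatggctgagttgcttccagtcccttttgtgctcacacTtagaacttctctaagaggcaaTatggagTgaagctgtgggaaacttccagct
UGT2A3, chr4:69816918-69817037, minus strand, no H3K4me3 in any library: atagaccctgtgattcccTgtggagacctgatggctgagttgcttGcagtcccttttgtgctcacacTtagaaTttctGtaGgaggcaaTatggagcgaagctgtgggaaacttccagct
Over these bases the marked pseudogene copy was 95.8% identical to the lncRNA copy. The unmarked copies were 97.5%, 97.5% and 94.2% identical in the order shown. The marked pair was therefore not the most similar pair in this window.

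H3K4me3 covered 8141 and 6668 bp of the stretch in control replicates 1 and 2. It covered 705 and 386 bp in ATRA replicates 1 and 2. Both control values lay above both ATRA values, with means of 7405 ± 1042 bp and 545.5 ± 226 bp (SD, n = 2 each), a difference of 6859 bp that was not tested. Relative to the share of the whole genome under H3K4me3, the stretch held 0.324 and 0.333 times as much in the control libraries and 0.0266 and 0.0148 times as much in the ATRA libraries. H3K4me3 was thus sparse here in control cells too.

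**Figure D1:**
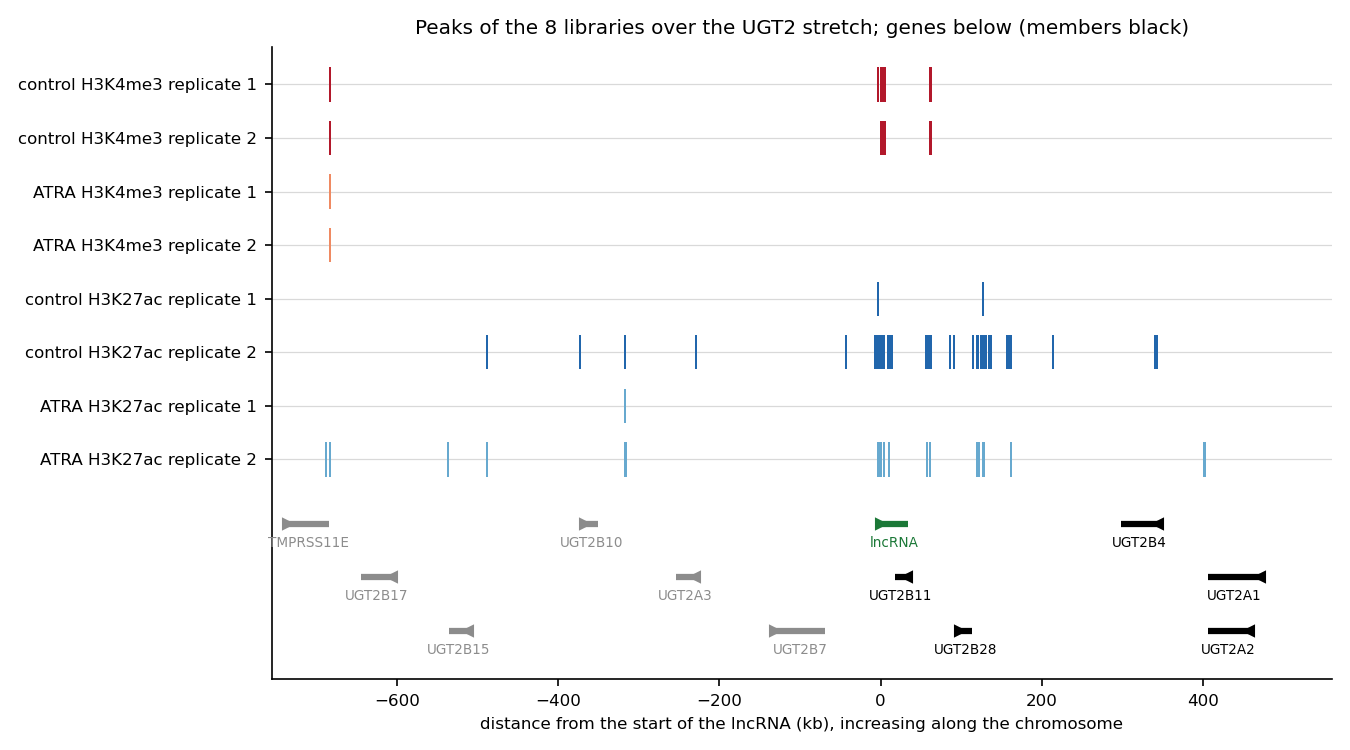
Peaks of each library (rows) over the stretch of 1.3 Mb, by distance in kb from the lncRNA start, with genes below (members in black, other protein-coding genes in gray, the lncRNA in green, triangles at gene starts). Narrow peaks are widened to 2.5 kb to be visible. Control cells have H3K4me3 at the lncRNA, at 1 further place to its right and at the left edge, and ATRA-treated cells have it at the left edge alone.

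The 4 H3K4me3 libraries together marked 6 loci, numbered from the left. Locus 1, chr4:69364304-69365125, started 982 bp past the 3′ end of TMPRSS11E, a membrane serine protease gene, and was the only locus found in ATRA-treated cells. Its length under H3K4me3 was 693 and 272 bp in control replicates 1 and 2 and 705 and 386 bp in ATRA replicates 1 and 2. The groups overlapped there.

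Loci 2 to 6 were marked in control cells and at 0 bp in both ATRA libraries. Locus 2, chr4:70044368-70045193, lay in no annotated gene and was marked over 826 bp in control replicate 1 and at 0 bp in control replicate 2. Locus 3, chr4:70047570-70049426, was marked over 1852 and 1750 bp in control replicates 1 and 2. It began 248 bp before the lncRNA start, held 273 bp of lncRNA exon and also covered part of the pseudogene ENSG00000196472 at chr4:70047378-70048090. The lncRNA spans chr4:70047818-70082484 on the plus strand. It crosses UGT2B11 in the opposite direction and ends 2018 bp beyond the UGT2B11 TSS.

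Locus 4, chr4:70050684-70051417, was marked over 670 and 728 bp in control replicates 1 and 2. Locus 5, chr4:70052402-70054246, was marked over 977 and 1845 bp. Both fell in introns of the lncRNA, 1257 and 984 bp beyond the preceding locus. Locus 6, chr4:70108527-70111649, stood 54.3 kb further on, between the starts of UGT2B11 and UGT2B28, and was marked over 3123 and 2073 bp. It began 181 bp inside the pseudogene ENSG00000249763, which spans chr4:70108346-70116533, and held 528 bp of its exons. Loci 2 to 6 summed to 7448 and 6396 bp in the control libraries.

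The 9 control peaks at loci 2 to 6 were all shorter than the median peak of their library. Their lengths ran from 670 to 3123 bp, the 14.4th to 45.5th percentile of the peaks in their library, where the median was 3555 bp in replicate 1 and 3545 bp in replicate 2. Their deposited −log10 q ran from 8.46 to 35.8, the 22.7th to 89.4th percentile. All 9 passed a stricter −log10 q of 5.

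The bases under these peaks were poor in G and C. Their GC content ran from 33.5% to 42.1% in control replicate 1 and from 33.0% to 38.3% in replicate 2, against medians of 48.7% and 49.5% over all H3K4me3 peaks of these libraries. The ratio of observed to expected CpG dinucleotides was 0.124 to 0.322 and 0.113 to 0.294, against medians of 0.463 and 0.517. No peak at loci 2 to 6 exceeded the 16.0th percentile of its library in GC content.

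**Figure D2:**
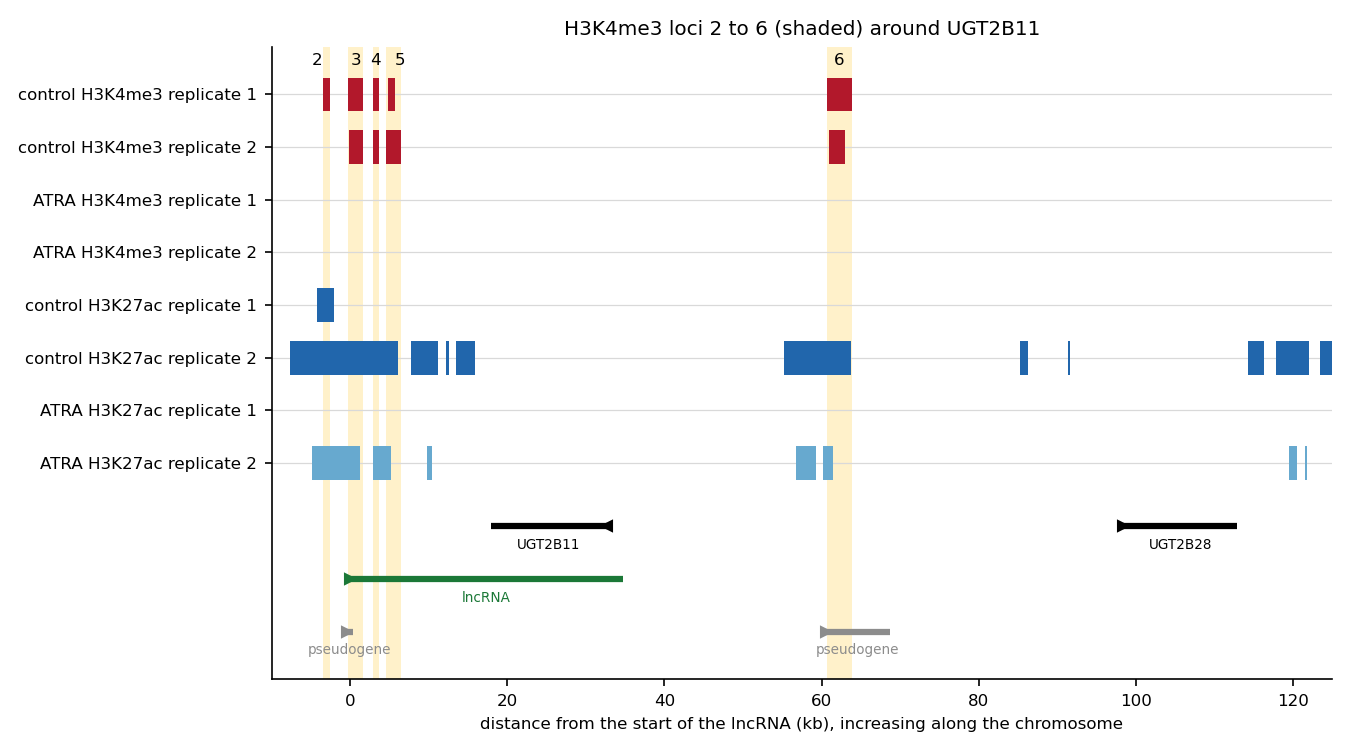
Peaks of each library around UGT2B11 and UGT2B28, by distance in kb from the lncRNA start, with H3K4me3 loci 2 to 6 shaded and numbered. Rows are libraries and triangles mark gene starts. The H3K4me3 of control cells sits over the lncRNA start and its introns and inside a pseudogene, and none lies at the UGT2B11 or UGT2B28 start.

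The position relative to each member was measured from every annotated TSS to the nearest H3K4me3 peak. UGT2B11, an enzyme of lipid glucuronidation at chr4:70065669-70080466 on the minus strand, has its 5′ TSS at 70080466. There the nearest H3K4me3 in control replicates 1 and 2 was locus 5, 26.9 and 26.2 kb downstream and beyond the 3′ end of the gene. A second annotated UGT2B11 start, at 70071411, was 17.9 and 17.2 kb from it. UGT2B28, a steroid-conjugating enzyme at chr4:70146193-70160768 on the plus strand, had its nearest control H3K4me3 at locus 6, 34.5 and 35.3 kb upstream of its 5′ TSS. These were the nearest members to the mark.

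UGT2B4, a liver enzyme that conjugates bile acids at chr4:70345883-70391732 on the minus strand, has a group of starts near 70361623 and a distal start at 70391732. From 70361623 the nearest control H3K4me3 was 249.97 and 250.8 kb downstream, again locus 6. From the distal start it was 280.1 and 280.9 kb downstream. UGT2A1, the olfactory enzyme at chr4:70454135-70518967, and UGT2A2 at chr4:70454135-70505360 share their later exons on the minus strand. They start at 70518967 and 70505360. Their nearest control H3K4me3 lay outside the stretch, 170.7 and 171.4 kb upstream of UGT2A1 and 184.3 and 185.0 kb upstream of UGT2A2. In ATRA replicates 1 and 2 that same upstream place was the nearest H3K4me3 to both, at 170.7 kb in each library for UGT2A1. For UGT2B11 and UGT2B28 the nearest H3K4me3 in ATRA-treated cells was over 500 kb away, at 609.2 kb and 543.5 kb in both libraries.

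With at least 1 bp of H3K4me3 within 2 kb of a TSS in both control libraries and neither ATRA library as the call, 0 of 5 members were called. Of all protein-coding genes, 28 were called, or 0.139%. The lncRNA was called, with 1852 and 1750 bp of its window covered in the control libraries and 0 bp in both ATRA libraries, as were 0.118% of lncRNA genes, 22 of 18702. In bins of 40 kb with H3K4me3 in any library, 73 of 13935 or 0.524% had it in both control and neither ATRA library. Both bins that hold loci 2 to 6 were among them, ranked 3 and 8 of 73 by their mean covered length of 4324 and 2598 bp. Because these bins hold the H3K4me3 that chose the members, nothing is read from their rank.

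The upstream stretches of UGT2B11 and UGT2B28 are shown as the 2 member promoters on either side of locus 6. Each gives the 150 bases before the 5′ TSS on the strand of the gene, and capitals mark bases that differ between them or have no partner.
UGT2B11, chr4:70080467-70080616, minus strand: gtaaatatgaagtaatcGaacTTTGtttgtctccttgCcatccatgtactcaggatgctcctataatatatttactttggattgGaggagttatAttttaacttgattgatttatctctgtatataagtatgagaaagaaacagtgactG
UGT2B28, chr4:70146043-70146192, plus strand: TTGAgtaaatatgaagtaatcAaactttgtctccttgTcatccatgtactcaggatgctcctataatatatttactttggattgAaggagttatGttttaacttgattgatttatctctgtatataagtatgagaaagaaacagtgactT
Of 146 aligned bases 141 were identical. Both stretches were free of H3K4me3 in all 4 libraries.

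H3K27ac, which the choice of the members did not use, differed more between replicates than between conditions. It covered 3827 and 59629 bp of the stretch in control replicates 1 and 2. It covered 214 and 27957 bp in ATRA replicates 1 and 2. The groups overlapped, and both replicate 2 libraries lay above both replicate 1 libraries. The means were 31728 ± 39458 bp in control cells and 14086 ± 19617 bp in ATRA-treated cells (SD, n = 2 each). The difference of 17643 bp was smaller than either SD. An exact two-sided permutation test of the difference between the means gave p = 0.667, and 0.333 is the smallest p that 2 against 2 allows. The direction rested on control replicate 2, since without it the difference, control minus ATRA, was -10258.5 bp. The number of peaks in the whole library went the same way within each condition, with 15457 and 29616 in control replicates 1 and 2 and 28200 and 39332 in ATRA replicates 1 and 2. Its part in the replicate difference was not tested. Relative to the genome, H3K27ac in the stretch was 0.316 and 2.63 times the share in the control libraries and 0.00786 and 0.773 times in the ATRA libraries.

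The H3K27ac that went with the H3K4me3 was read from the 9 control peaks at loci 2 to 6. All 9 overlapped H3K27ac in at least 1 control library by 1 bp or more, and all 9 did so over at least 50% of their length. The 9 stand at 5 loci, however, and are not independent. In control replicate 2, the peaks chr4:70040072-70053921 and chr4:70103038-70111532 alone gave all of these overlaps. Among all control H3K4me3 peaks 73.6% overlapped H3K27ac in a control library, and 57.1% of the control-only ones did (226 of 396, found in both control and neither ATRA library). Within replicate numbers the count was 1 of 5 peaks in replicate 1, where the control-only background was 40.9%, and 4 of 4 in replicate 2, where it was 53.9%. That 1 peak was locus 2, which also counts among the 9. It was found in control replicate 1 only and so falls outside the control-only backgrounds. None of the other replicate 1 peaks at these loci overlapped H3K27ac of control replicate 1. Without control replicate 2 of H3K27ac the overlap fell to 1 of 9. The control H3K27ac peaks over these loci had deposited −log10 q of 1.32 in replicate 1 and of 1.21 and 1.43 in replicate 2. With H3K27ac peaks of −log10 q of at least 5 only, 0 of 9 overlapped in a control library.

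Locus by locus, control replicate 2 had 826, 1857, 734, 1520 and 3006 bp of H3K27ac at loci 2 to 6. Control replicate 1 had 826 bp at locus 2 and 0 bp at the other loci. In ATRA replicate 2 the same loci held 826, 1481, 695, 536 and 795 bp, although they held no H3K4me3 in ATRA-treated cells. ATRA replicate 1 had 0 bp at all of them. All 9 control H3K4me3 peaks overlapped H3K27ac of ATRA replicate 2. Of the control-only peaks of the genome, a set without the locus 2 peak, 45.2% did. Of the 9, 3 did so with ATRA replicate 2 peaks of −log10 q of at least 5, at loci 2 and 3. Of the 9, 0 overlapped H3K27ac of ATRA replicate 1, against 28.8% of the control-only peaks. Locus 2 was the only locus with H3K27ac in 3 of 4 libraries.

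**Figure D3:**
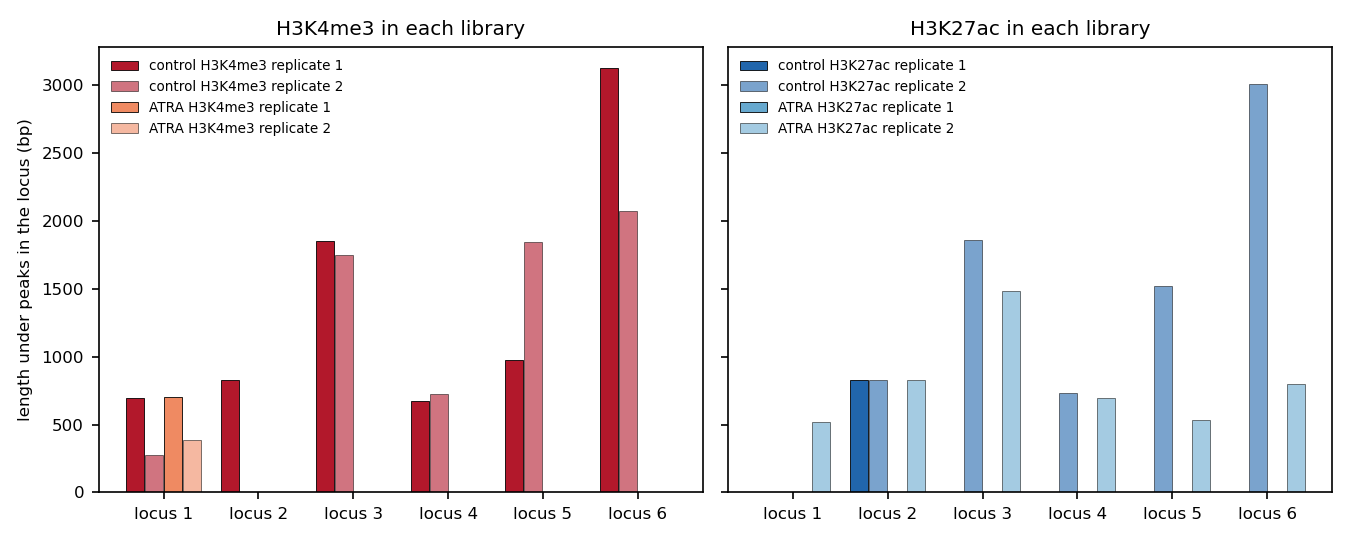
Length under peaks (bp) at loci 1 to 6 in each library, for H3K4me3 (left) and H3K27ac (right), with bars starting at 0 and 1 bar for each library. At loci 2 to 6 the H3K4me3 bars belong to control libraries, whereas the H3K27ac bars belong mostly to replicate 2 of both conditions.

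At the members themselves H3K27ac was found once. UGT2B4 had 2 peaks in control replicate 2, chr4:70387561-70389913 and chr4:70390938-70391591, of which the second ended 141 bp downstream of the distal TSS. They covered 836 bp within 2 kb of that TSS and 3007 bp of the gene, with 0 bp in the other 3 libraries. The count of members with H3K27ac within 2 kb of a TSS in any control library was therefore 1 of 5, where the share of all protein-coding genes was 51.7%. UGT2B11, UGT2B28, UGT2A1 and UGT2A2 had 0 bp within 2 kb of a TSS and 0 bp in the gene in all 4 H3K27ac libraries. The nearest H3K27ac to the 5′ TSS of UGT2B28 was 6.79 kb upstream in control replicate 2, and that to UGT2B11 was 16.8 kb downstream in the same library. In ATRA replicate 2, peaks at chr4:70448604-70449450 and chr4:70450377-70451214 lay past the shared 3′ end of UGT2A1 and UGT2A2, at 70454135. The nearer was 54.1 kb from the UGT2A2 TSS. Both overlapped another annotated gene, ENSG00000251177. Their deposited −log10 q was 0.89 and 1.33, the 16.7th and 34.9th percentile of their library.

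The other H3K27ac peaks of the stretch were nearly all from replicate 2 libraries. Left of locus 2, control replicate 2 had peaks at chr4:69559052-69560804, chr4:69674796-69674995, chr4:69729731-69732694, chr4:69819055-69819496 and chr4:70004622-70005020. ATRA replicate 2 had peaks there at chr4:69360007-69360908, chr4:69364511-69365027, chr4:69511416-69511789, chr4:69558468-69560081 and chr4:69729721-69732986, of which the second covered 517 bp of locus 1. The peaks that start at 69559052 and 69729731 in control cells were thus met by peaks of ATRA-treated cells.

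From locus 2 to locus 6, control replicate 2 had a long peak at chr4:70040072-70053921, 3 peaks inside the lncRNA from 70055563 to 70063657 and a peak at chr4:70103038-70111532. The first, of 13850 bp, was at the 99.6th percentile of peak length in its library. ATRA replicate 2 had chr4:70042992-70049050, chr4:70050723-70052937, chr4:70057638-70058216, chr4:70104576-70107131 and chr4:70107940-70109321, all shorter. Around UGT2B28, control replicate 2 had 2 peaks upstream of the gene, chr4:70133142-70134105 and chr4:70139189-70139400. Beyond the 3′ end of UGT2B28 it had 8 peaks from 70162120 to 70211015 and a last one before UGT2B4 at chr4:70261236-70261435. ATRA replicate 2 had chr4:70167377-70168331, chr4:70169399-70169598, chr4:70174081-70177301 and chr4:70207992-70210423 in the same part. Both libraries left the body of UGT2B28 free.

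Some H3K27ac peaks elsewhere in the stretch lay on duplicated sequence, copies of locus 2 among it. Control replicate 1 had 2 peaks, chr4:70043630-70045732 over locus 2 and chr4:70174325-70176048, and the second lay over a copy of locus 2 in inverted orientation. Locus 2 had 5 other copies in the stretch, defined as matches over at least 60% of its length, with identities from 89.0% to 92.7%. Beside UGT2A3 and each of its relatives, a copy stood 2372 to 2417 bp from the copy of the first-exon stretch, on its upstream side. The remaining copy, chr4:69730061-69730649, had no first-exon copy nearby.

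The element is shown as 100 bases of locus 2 with the copies, since its copies shared H3K27ac. Strands are as stated, capitals mark bases that differ from locus 2, and bases outside the local match were left out.
locus 2, chr4:70044668-70044767, plus strand, H3K27ac in 3 libraries: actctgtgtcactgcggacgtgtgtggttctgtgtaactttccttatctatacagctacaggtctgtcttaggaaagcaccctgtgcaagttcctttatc
chr4:70105574-70105673, plus strand, H3K27ac in both replicate 2 libraries: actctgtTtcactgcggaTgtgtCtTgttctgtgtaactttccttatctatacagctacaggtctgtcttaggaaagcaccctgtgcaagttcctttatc
chr4:70175504-70175603, minus strand, H3K27ac in 3 libraries: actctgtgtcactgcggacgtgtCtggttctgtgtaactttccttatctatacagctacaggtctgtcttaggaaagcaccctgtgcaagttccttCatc
chr4:70209616-70209715, plus strand, H3K27ac in both replicate 2 libraries: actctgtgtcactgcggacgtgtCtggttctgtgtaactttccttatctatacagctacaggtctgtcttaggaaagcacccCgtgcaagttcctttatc
chr4:69730378-69730471, minus strand, H3K27ac in both replicate 2 libraries: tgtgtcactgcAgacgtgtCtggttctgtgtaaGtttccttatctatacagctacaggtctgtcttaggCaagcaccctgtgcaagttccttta
chr4:69820137-69820231, minus strand, beside UGT2A3, H3K27ac in 0 libraries: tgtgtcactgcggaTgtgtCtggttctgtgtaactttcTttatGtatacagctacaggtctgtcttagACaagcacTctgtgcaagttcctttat

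Of the 5 other copies, 4 were wholly under H3K27ac in both replicate 2 libraries, with 589, 896, 852 and 845 bp covered. The copy beside UGT2A3 had 0 bp in all 8 libraries. Windows of the same 826 bp tiled over the stretch had H3K27ac in both of these libraries in 2.35% of cases, 37 of 1573. A window counted from 1 bp of overlap, and those over locus 2 and its copies were included. The share is therefore not a matched background. ATRA replicate 1 had no H3K27ac at any copy, and its only peak in the stretch, chr4:69731152-69731365, lay beside the copy at chr4:69730061-69730649. With peaks of −log10 q of at least 5 only, the count fell from 4 to 0 of 5, since 4 of the 23 peaks of control replicate 2 and 7 of the 16 of ATRA replicate 2 passed that threshold. These copies were examined after the peaks had been seen.

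H3K27ac peaks touching a copy of locus 2 or of locus 3 made up all 3827 bp of control replicate 1. They made up 63.6% of the 59629 bp of control replicate 2 and 67.7% of the 27957 bp of ATRA replicate 2. By number they were 5 of 23 peaks in control replicate 2 and 6 of 16 in ATRA replicate 2. Whole peaks were counted, the long one of 13850 bp among them, and loci 2 and 3 themselves were included. These shares are therefore larger than the shares that lay on the copies. H3K4me3, in contrast, was found at 0 of the 5 other copies of locus 2 in every library. Of the 4 other copies of locus 3, with identities from 90.4% to 94.8%, 1 carried H3K4me3 in both control libraries, at locus 6. Among copies of the other loci, H3K27ac was found at 6 of 23 for locus 4 in control replicate 2 and 1 of 23 in ATRA replicate 2, and at 1 of 4 for locus 5 in each of these libraries. For locus 3 it was 2 of 4 and 1 of 4. The copy at ENSG00000251691 had 1411 bp of H3K27ac in control replicate 2 and no H3K4me3. The copy at ENSG00000250612 matched locus 6 over its whole length, 95.9% identical, and had neither mark in any library.

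**Figure D4:**
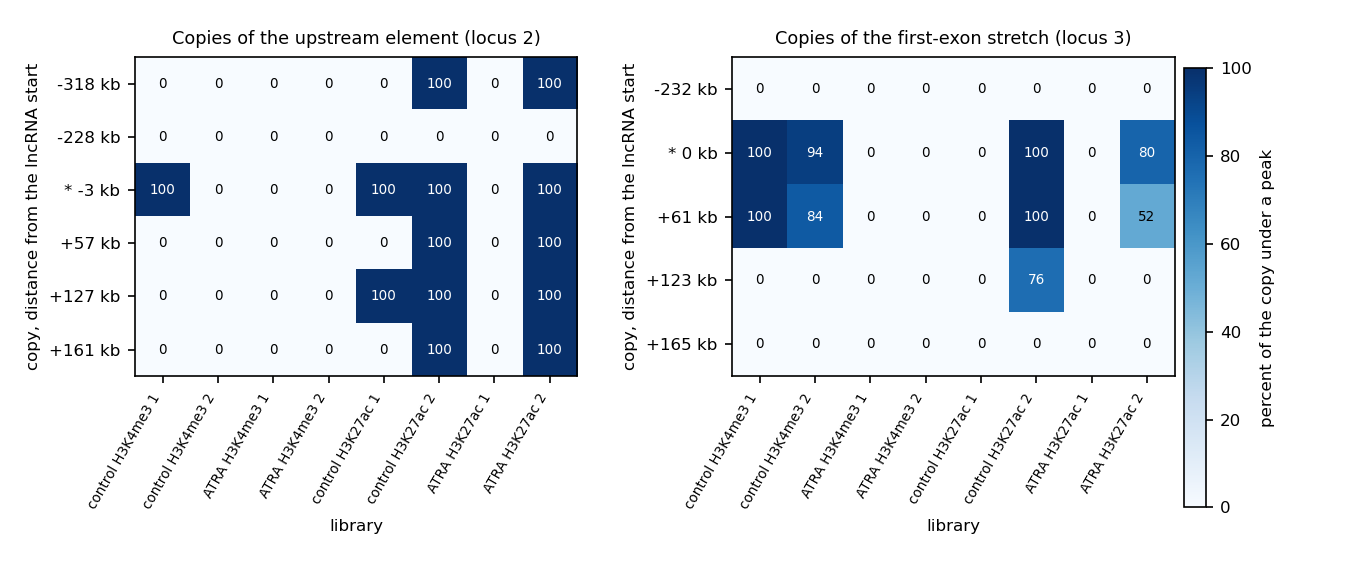
Percent of each copy under a peak in each library, for copies of locus 2 (left) and locus 3 (right), named by their distance in kb from the lncRNA start with a star at the locus itself. H3K27ac covers 5 of the 6 copies of the upstream element in both replicate 2 libraries, and H3K4me3 covers 2 of the 5 copies of the first-exon stretch in control libraries alone.

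How far short reads can be placed at such copies was read from the genome sequence. Of the stretches of 50 bases starting in the whole region, 87.9% occurred once in hg19, and of those of 100 bases 96.7% did. At locus 3 these shares were 70.0% and 98.5%, and at locus 6 they were 72.9% and 92.4%. Loci 2, 4 and 5 had 84.6%, 73.3% and 86.2% unique stretches of 50 bases and 98.8%, 100% and 99.4% of 100 bases. Locus 4 also had 23 further matches in the region, with identities from 76.5% to 91.9%. Read length and the handling of reads with several matches are not given in the sources used here, and their part in the marks at the copies was not tested.

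The other protein-coding genes of the stretch were likewise without H3K4me3. TMPRSS11E, UGT2B17, UGT2B15, UGT2B10, UGT2A3 and UGT2B7 had 0 bp within 2 kb of a TSS in all 4 H3K4me3 libraries. Only UGT2A3, a bile acid glucuronidating enzyme, had H3K27ac at a TSS, 442 bp in control replicate 2, under a peak with a −log10 q of 0.54, the 4.99th percentile of its library. In the wider glucuronidation list of 22 genes, which holds 5 of these neighbours, 17 genes were further ones. Of these 17, 5 had H3K4me3 at a TSS in all 4 libraries and 12 in none. The 5 were UGP2 and UGDH, which make UDP-glucose and UDP-glucuronic acid, SLC35D1, a carrier of UDP-glucuronic acid, SLC35B1, a transporter of the endoplasmic reticulum membrane, and GUSB, which removes glucuronic acid. All 12 others were UGT genes, UGT1A1 and the rest of the UGT1A locus among them. None of the 22 was marked in control cells alone. UGDH had 4001 bp of H3K4me3 in its window in each of the 4 libraries, which is the whole window.

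Cell identity was read from markers. Of 8 promyelocyte genes, 6 had H3K4me3 in all 4 libraries, among them MPO, CD33, SPI1 and CEBPA, whereas ELANE had none in any library and AZU1 had it in 1 library of each condition. Of 8 hepatocyte genes, including ALB, APOA1 and HNF4A, 0 had H3K4me3 in any library. OMP and CNGA2, which define olfactory neurons, had none either, and the broadly expressed ADCY3 had it in all 4. GNAL had 1 and 122 bp in its windows in control replicates 1 and 2 and 1068 and 1077 bp in ATRA replicates 1 and 2.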

How the data were processed

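ChIP-seq was performed with antibodies against H3K4me3 and H3K27ac in HL-60 cells treated with ethanol or ATRA, 2 libraries for each mark and condition, grouped by the sample titles. After adapter removal, the authors used Bowtie to map the reads on hg19 and MACS2 in its broad setting, without a fragment model, to call the peaks of a library. They deposited peak positions and, for each peak, a −log10 q. The fold enrichment and −log10 p columns hold impossible values and were not used. The −log10 q column was used as deposited, and whether it shares this fault was not tested. In control H3K27ac replicate 2 it fell to 0.26 in the stretch. Every count or percentile by −log10 q rests on this column. Input libraries were made, whereas depth and the part of the input in the peak call are not given in the sources used here, so precision rests on 2 replicates.

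Peaks were compared with TSS of GENCODE release 44 on GRCh37, within 2 kb and with at least 1 bp of overlap. H3K27ac length was compared with an exact permutation test over libraries. Copies were found with blastn 2.17.0 (e-value at most 1e-20, matches within 300 bp joined, at least 60% of the locus) and occurrences of 50 and 100 bases by counting on both strands. The named genes are the 5 members, the other genes of the stretch, the glucuronidation list, the marker lists and 5 genes with control-only H3K4me3 and no H3K27ac at a TSS, by covered length. An item that this rule covers is not reported here. The members and lists were chosen with earlier results of these data known. Alternatives were the TSS window and set, the overlap, a −log10 q of 5, the borders, peak numbers, replicate numbers and each library left out. Those added after seeing the data were the lncRNA, bin and copy counts, the stretch without locus 1 and the H3K27ac library and stringency used. Scripts ran on python 3.11.15, numpy 2.4.6, pandas 2.3.3, biopython 1.88 and numba 0.67.0 and were tested on simulated data.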

Additional observations from a re-analysis of the deposited data

How the results depend on the processing

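The 5 members were called 0 times for H3K4me3 under all 11 alternatives tried (windows, TSS set, overlap, stringency, replicate numbers and single libraries). These alternatives could not have changed that count. The nearest H3K4me3 to any member TSS was 17.2 kb away, beyond the widest window of 5 kb. The H3K27ac count of 1 member kept its size under 3 alternatives. The H3K4me3 difference between control and ATRA-treated cells of 6859 bp became 2598 bp when only the member genes with 10 kb on either side were counted, which leaves out loci 1 to 5, and was 6922 bp without locus 1. With the replicate numbers as a replicate block it was 7436 and 6282 bp in replicates 1 and 2. The H3K27ac difference of 17642.5 bp became -3902.5 bp with peaks of −log10 q of at least 5 and ranged from -10258.5 to 45543.5 bp when single libraries were left out. Within replicate numbers it was 3613 and 31672 bp. Control H3K4me3 peaks with H3K27ac in a control library went from 9 to 5 within replicate numbers, to 0 when H3K27ac peaks had to reach a −log10 q of 5, and ranged from 1 to 9 when an H3K27ac control library was left out. Copies of the upstream element with H3K27ac in both replicate 2 libraries went from 4 to 0 at a −log10 q of at least 5 and were 3 of 3 when a copy had to span at least 90% of the element. The 28 protein-coding genes called became 136 with the stricter peaks, 201 and 58 in the replicate block of numbers 1 and 2, and 36 to 152 when single libraries were left out. With fewer libraries the call has fewer conditions to meet, so in the block and with libraries left out this count could not fall. Over 77403 bins of 40 kb, same-numbered libraries deviated from the mean of their condition with Pearson's r = 0.223 (H3K4me3) and 0.557 (H3K27ac); with 2 pairs and no label for a shared batch, the numbers were not taken to pair the samples. The cause of the other changes was not tested. Without read counts, a place without a peak cannot be told from one with a weak mark.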

Other observations

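Outside the stretch, 9 protein-coding genes had H3K4me3 at a TSS in both control libraries and in neither ATRA library, and no H3K27ac at a TSS in any library, a condition that the marked loci themselves did not meet. Among the 5 with the longest covered length were ADM2, CCR8, TERT and SFTA2. Their windows held 3447 and 2393 bp (ADM2), 1638 and 1620 bp (CCR8), 1265 and 1715 bp (TERT) and 1748 and 1158 bp (SFTA2) of H3K4me3 in control replicates 1 and 2. The opposite call, H3K4me3 in both ATRA and neither control library, was made at 71 protein-coding genes.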
